A study of Mus musculus with 8 samples.

Results

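The type I interferon-stimulated genes described here are Isg15, Usp18, Irf7, Rsad2, Oasl2, Ifit1, Ifit2, Ifit3 and Mx1, 9 genes of the 52784 in the table of estimated counts. They were chosen by name, and all 9 were found in the table through their GENCODE identifiers. The libraries came from the whole-body harvest of pups aged 1 week after in-utero transplantation (IUT), in which donor cells are injected into a fetus. CD11c-DTR dams on a C57BL/6 (B6) background had been mated with BALB/c sires, so the pups were F1 hybrids. In such dams diphtheria toxin (DT) removes CD11c+ dendritic cells (DC) for a short time, because the CD11c (Itgax) promoter drives the toxin receptor. Trafficked maternal cells were sorted by the B6 marker H2K-b and recipient cells by the BALB/c marker H2K-d, with magnetic enrichment before FACS, and F1 cells inherit both haplotypes. In the uninjected libraries the pups had received no donor cells and their dams DT or saline, in a proportion that the sources used here do not give. In DC control mIUT, dams without DC depletion carried fetuses injected with 5000000 bone marrow mononuclear cells of B6 (CD45.1) mice on embryonic day 14. In DC control pIUT the donor cells were BALB/c, and in DC-depleted pIUT the dam had in addition been given DT at 5 ng/g on embryonic day 13. Each origin and treatment gave 1 library of several pooled pups, 8 in all, so every comparison with a single library on each side describes those libraries and carries no p-value.

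Type I interferons bind a receptor of 2 chains, Ifnar1 and Ifnar2, whose kinases Jak1 and Tyk2 phosphorylate transcription factors such as Stat2. With Irf9 these form ISGF3, a complex that binds the interferon-stimulated response element (ISRE) in the promoters of its target genes. The 9 genes are standard targets of this pathway, and hemopoietic cells also hold some of their transcripts without infection. Isg15 is a ubiquitin-like protein that is joined to other proteins, and Usp18 is the protease that removes it and also damps signalling at the receptor. Irf7 is a transcription factor that amplifies interferon production. Rsad2 (viperin), Oasl2, the Ifit proteins and Mx1 are antiviral effectors. Most inbred strains, B6 and BALB/c among them, carry a defective Mx1 gene.

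The promoters of the 9 genes were searched on both strands for the ISRE core GAAANNGAAA, whose reverse complement is TTTCNNTTTC, in the 300 bases from 250 before to 50 after the start of the canonical transcript (GRCm39, GENCODE annotation). The core was present in 5 of the 9 promoters (55.6%) and in 3.84% of the 21770 promoters of protein-coding genes. It occurred at least 2 times in 4 of the 9 (44.4%) and in 0.294% of all promoters. Among 36 other type I interferon-stimulated genes the share with a core was 38.9%, among 16 genes induced by interferon-gamma 56.2%, and among 11 negative regulators of the pathway 0%. The windows of 60 bases that follow are shown because they hold the cores, which stand in capitals, and each is written 5′ to 3′ on the strand of its gene.
Isg15: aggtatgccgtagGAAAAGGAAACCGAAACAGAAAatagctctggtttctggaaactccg
Ifit1: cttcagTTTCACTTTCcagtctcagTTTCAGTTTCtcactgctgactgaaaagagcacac
Ifit3: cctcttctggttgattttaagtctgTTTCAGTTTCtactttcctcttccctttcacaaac
Rsad2: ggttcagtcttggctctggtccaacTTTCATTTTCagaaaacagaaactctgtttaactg
Usp18: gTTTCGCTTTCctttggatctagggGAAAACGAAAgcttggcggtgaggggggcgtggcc
The Isg15 window lies at chr4:156285307-156285366 on the minus strand, and its 3 cores overlap. The Ifit1 window lies at chr19:34618179-34618238 on the plus strand with 2 cores. The Ifit3 window lies at chr19:34560782-34560841 on the plus strand with 1 of the 2 cores of that promoter. The Rsad2 window lies at chr12:26506537-26506596 on the minus strand with a single core, and the Usp18 window at chr6:121222781-121222840 on the plus strand with 2 cores facing opposite ways. These letters were not found in the promoter windows of Ifit2, Oasl2, Mx1 and Irf7. The 5 genes with a core did not share a pattern over the libraries: Ifit1 and Ifit3 were at 3 counts or fewer in 2 libraries each, while Isg15, Rsad2 and Usp18 were above 3 counts in all 8.

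Library totals ranged from 38543457 to 47965130 counts. Levels are given as CPM (counts per 1000000) on the scale of each library's total and its TMM factor, and 3 counts (0.0547 to 0.105 CPM) were taken as the floor below which a gene was not detectable. Of 7375 genes with a median of at least 10 CPM, 13.9% were at or under the floor in the recipient uninjected library and 10.9% in the maternal DC control mIUT library, against 0% to 2.73% in the others. A gene at or near 0 in these libraries therefore shared that state with many well-expressed genes. The maternal label was checked with Ddx3y, Eif2s3y, Kdm5d and Uty, Y-linked genes that cells of a dam lack. They summed to 0 counts in the maternal uninjected library, but to 118 CPM in the library labelled maternal DC control mIUT, 29.3 CPM in that labelled maternal DC control pIUT and 30.0 CPM in that labelled maternal DC-depleted pIUT. The recipient libraries held 26.03 to 117 CPM of these genes. The 3 maternal IUT libraries thus held transcripts of male cells, and "maternal" is used here as the label of the sort. Ptprc, which encodes the leukocyte antigen CD45, was at 229, 163, 70.2 and 2.63 CPM in the maternal uninjected, DC control mIUT, DC control pIUT and DC-depleted pIUT libraries, and at 242, 459, 227 and 168 CPM in the recipient libraries in the same order. The maternal DC-depleted pIUT library was therefore nearly without the defining leukocyte transcript. In bulk samples fewer cells of a type and less RNA per cell cannot be told apart.

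Of the 9 genes, 6, 8, 7 and 6 were above the floor in the maternal uninjected, DC control mIUT, DC control pIUT and DC-depleted pIUT libraries, and 7, 9, 9 and 9 in the recipient libraries in the same order. The genes above it in all 8 libraries were 5, Isg15, Irf7, Rsad2, Oasl2 and Usp18 (55.6%, against 67.7% of the 8508 genes with a mean of at least 10 CPM). Per kilobase of exon, mean levels over the 8 libraries were 50.1 CPM for Isg15, 24.5 for Irf7, 15.2 for Rsad2, 13.2 for Usp18, 4.72 for Oasl2, 4.65 for Ifit3, 3.93 for Ifit1, 2.22 for Ifit2 and 0.152 for Mx1. Irf7 and Isg15 were also the steadiest of the genes present everywhere, with an SD of log2(CPM + 1) of 0.86 and 0.82. The SD was 2.56 for Ifit1, 2.28 for Ifit3 and 2.02 for Ifit2, and the median over the 9 genes was 1.69, against 1.45 over the 8508 genes. Mx1 had an SD of 0.64, with 0 counts in 5 libraries and at most 1.42 CPM in the others.

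**Figure D1:**
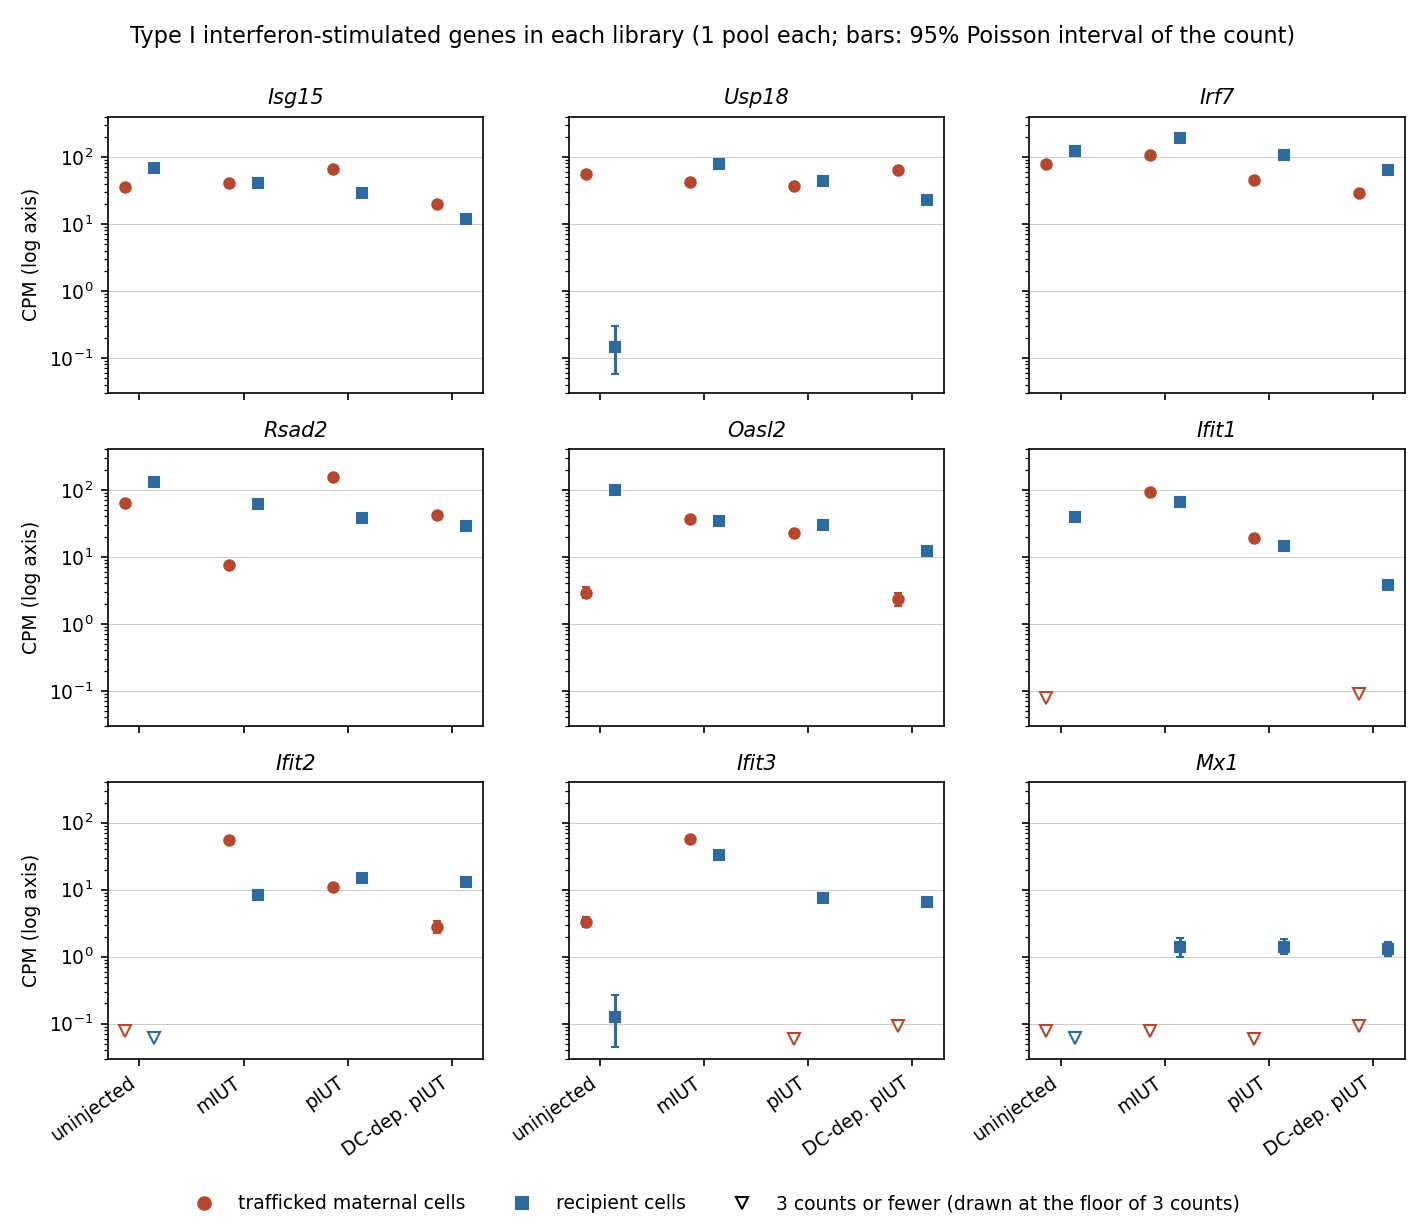
CPM (log axis) of each of the 9 genes by treatment in trafficked maternal (circles) and recipient (squares) libraries, with 95% Poisson intervals of the count, which are often smaller than the symbol; open triangles mark 3 counts or fewer, drawn at the floor. Isg15, Irf7 and Rsad2 are present in all 8 libraries, the Ifit genes drop to the floor in some, and Mx1 is above the floor in 3 recipient libraries.

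Irf7, which was well counted in every library, was at 78.2, 106, 44.8 and 28.7 CPM in the maternal uninjected, DC control mIUT, DC control pIUT and DC-depleted pIUT libraries. In the recipient libraries it was 123, 192, 106 and 62.8 CPM. The order of the treatments was the same in both origins, with DC control mIUT highest, then uninjected, DC control pIUT and DC-depleted pIUT, and the recipient library was the higher one under each treatment.

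Isg15 was at 35.3, 41.2, 65.8 and 19.9 CPM in the maternal libraries (order as for Irf7). In the recipient libraries it was at 68.6, 41.4, 29.0 and 12.0 CPM. DC-depleted pIUT was the lowest library of each origin, while the highest was DC control pIUT in maternal cells and uninjected in recipient cells. Usp18, which acts on Isg15 conjugates, was at 56.4, 42.5, 36.8 and 63.3 CPM in the maternal libraries. In the recipient libraries it was at 0.145, 77.7, 43.7 and 22.4 CPM, the first of these a count of 7. The low value fell in 1 of the libraries in which many genes were missing, and the other 7 lay within a range of 22.4 to 77.7 CPM. Isg15 and its protease thus had opposite extremes in the uninjected recipient library, where Isg15 was at its highest.

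Rsad2 was at 63.7, 7.57, 156 and 41.9 CPM in the maternal libraries. It was at 130 CPM in the recipient uninjected library (6310 counts), followed by 60.8, 38.0 and 29.3 CPM in the recipient DC control mIUT, DC control pIUT and DC-depleted pIUT libraries. Its lowest value was the maternal DC control mIUT library, in which Cmpk2, the neighbouring interferon-stimulated gene, was at 246 CPM. Oasl2, a relative of the oligoadenylate synthetases, was at 2.90, 36.7, 22.9 and 2.33 CPM in the maternal libraries. In the recipient libraries it was at 100.04, 34.0, 29.5 and 12.3 CPM. In recipient cells Oasl2, Rsad2 and Isg15 followed the same order, uninjected highest, then DC control mIUT, DC control pIUT and DC-depleted pIUT, and in maternal cells they did not.

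Ifit1 binds viral RNA that lacks the cap modification of the host, and Ifit2 and Ifit3 are its relatives. Ifit1 was at 0, 91.3, 19.4 and 0 CPM in the maternal libraries and at 38.9, 65.6, 14.3 and 3.81 CPM in the recipient libraries. Ifit2 was at 0, 55.3, 10.9 and 2.82 CPM in the maternal and 0, 8.23, 14.8 and 13.02 CPM in the recipient libraries. Ifit3 was at 3.31, 57.0, 0 and 0 CPM in the maternal and 0.124, 32.8, 7.46 and 6.51 CPM in the recipient libraries. All 3 were highest of the maternal libraries in DC control mIUT, and Ifit1 and Ifit3 were also highest there among the recipient libraries. A value of 0 CPM allows up to 3 counts, which is 0.0593 to 0.0909 CPM in the libraries concerned. Ifit3 has the near-identical copy Ifit3b, and Ifit1 has the related genes Ifit1bl1 and Ifit1bl2. The estimated counts of Ifit1 and Ifit3 were fractional in 4 and 5 libraries, so that some reads were shared with other genes. In the maternal uninjected and DC control pIUT libraries the estimates for Ifit1 were whole, at 0 and 980 counts. Ifit3b had 151, 1433, 0 and 0 counts in the maternal and 0, 1238, 804 and 75 in the recipient libraries, and Ifit1bl2 had 2, 7685, 0 and 0 in the maternal and 1, 1812, 604 and 24 in the recipient libraries. Ifit1bl1 had 915, 512, 0 and 0 counts in the maternal libraries and 0, 157, 41 and 114 in the recipient libraries. These related genes thus had their highest counts in the DC control mIUT libraries too, except Ifit1bl1 in maternal cells.

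Mx1 was above the floor in the recipient DC control mIUT, DC control pIUT and DC-depleted pIUT libraries only, at 1.39, 1.42 and 1.30 CPM (40, 64 and 71 counts). It had 0 counts in the recipient uninjected library and in all 4 maternal libraries. The 3 values lay within each other's 95% Poisson intervals, which run from 0.997 to 1.90 CPM in the first library, 1.09 to 1.81 in the next and 1.01 to 1.63 in the last. Its close relative Mx2 was detected in 1 library, the recipient DC control pIUT library, with 46 counts.

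The comparison of each IUT library with the uninjected library of its origin asks how the genes differed after transplantation. The comparisons of an origin share their uninjected library. A gene was counted as higher or lower at a difference of at least 2-fold, on edgeR's log2 fold change scale. Such differences were frequent everywhere. In maternal cells after DC control mIUT, 4 of 8 genes tested were higher and 1 lower, beside 27.1% of all genes tested higher and 46.1% lower. The counts were the same after DC control pIUT, 4 higher and 1 lower of 8, beside 34.3% of genes higher and 34.3% lower. After DC-depleted pIUT 1 of 7 was higher and 2 lower, beside 37.1% and 36.3% of genes. In recipient cells 4 of 9 were higher and 2 lower after DC control mIUT, beside 53.5% and 26.5%. Both pIUT treatments had 4 of 9 higher and 4 lower, beside 54.6% and 21% of genes after DC control pIUT and 57.2% and 18.8% after DC-depleted pIUT. The share of higher genes in recipient cells was thus below the background and that of lower genes above it after both pIUT treatments, with 9 genes and 1 library on each side.

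In maternal cells the genes furthest above the uninjected library were Ifit1 and Ifit2, at 0 counts in that library. After DC control mIUT Ifit1 was at least 1184-fold higher and Ifit2 at least 717-fold higher, with the uninjected library set to 3 counts. After DC control pIUT the bounds were 251-fold and 141-fold. Oasl2 was 12.6-fold higher (95% counting interval 10.4 to 15.5) after DC control mIUT and 7.90-fold higher (6.51 to 9.67) after DC control pIUT. Ifit3 was 17.2-fold higher (14.4 to 20.7) after DC control mIUT and at least 55.9-fold lower after DC control pIUT. The bounds for Ifit1 leave out its related genes Ifit1bl1 and Ifit1bl2. With their counts added to those of Ifit1, the log2 fold change was 3.68 after DC control mIUT and -0.28 after DC control pIUT. For Ifit1 alone it was 14.79 and 12.76. The uninjected library held 915 counts of Ifit1bl1. Rsad2 went the other way to Ifit3, 8.42-fold lower (7.46 to 9.53) after DC control mIUT and 2.45-fold higher (2.34 to 2.57) after DC control pIUT. Isg15, Irf7 and Usp18 were within 2-fold of the uninjected library after both DC control treatments, except that the log2 fold change of Isg15 after DC control pIUT, 0.90, became 1.10 with DESeq2 size factors and 1.24 with scaling by library size, which is beyond 2-fold. The median log2 fold change of the genes tested was 2.05 after DC control mIUT and 1.10 after DC control pIUT, beside -0.67 and 0.00 over all genes tested. Both medians depend on the genes counted. With at least 10 counts in both libraries the median after DC control mIUT was 0.33 over 6 genes, beside 0.08 over all genes above the floor in both libraries. With the related genes added to Ifit1 and Ifit3 the median after DC control pIUT was 0.31.

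In recipient cells the same 4 genes were higher than in the uninjected library under every IUT treatment, and each was at 7 counts or fewer there. Usp18 was 537-fold higher (260 to 1337) after DC control mIUT, 302-fold (146 to 752) after DC control pIUT and 155-fold (74.9 to 386) after DC-depleted pIUT. Ifit3 was 264-fold, 60.1-fold and 52.5-fold higher, Ifit2 at least 133-fold, 238-fold and 210-fold higher, and Mx1 at least 22.5-fold, 22.8-fold and 20.9-fold higher. With a minimum of 10 counts in each of the 2 libraries, 5 of the 9 could be compared with the recipient uninjected library and 0 of these were 2-fold higher under any treatment, while the share over all genes fell to 27.1%, 22.4% and 19.3%. Oasl2 and Rsad2, which were well counted in the uninjected library, were lower under all 3 treatments. Oasl2 was 2.94-fold, 3.39-fold and 8.16-fold lower after DC control mIUT, DC control pIUT and DC-depleted pIUT, and Rsad2 2.15-fold, 3.43-fold and 4.45-fold. Isg15 was 2.37-fold lower (2.22 to 2.52) after DC control pIUT and 5.73-fold lower (5.27 to 6.24) after DC-depleted pIUT, and Ifit1 2.71-fold and 10.2-fold lower. With the counts of its related genes added to Ifit1, the log2 fold change after DC control pIUT was -0.44, which is within 2-fold, beside -1.44 for Ifit1 alone. After DC control mIUT the value with them added was 1.79, which is beyond 2-fold, beside 0.76 for Ifit1 alone. Irf7 was within 2-fold under all 3 treatments, but its log2 fold change after DC-depleted pIUT, -0.97, was near that limit and became -1.09 with DESeq2 size factors. Cell type markers differed widely between the same libraries. Erythroid markers summed to 92776, 155, 29426 and 19438 CPM in the recipient uninjected, DC control mIUT, DC control pIUT and DC-depleted pIUT libraries, hepatocyte markers to 10215, 25.8, 5.14 and 664 CPM, epithelial markers to 2478, 4.08, 25.1 and 29.97 CPM and NK cell markers to 28.6, 39.4, 697 and 816 CPM. Not every marker followed its sum. Hepatocyte markers were at least 2-fold lower in 6, 6 and 2 of 7 under the 3 treatments, and higher in 1, 1 and 2. Epithelial markers were lower in 4, 3 and 3 of 4 tested, and higher in 0, 1 and 1. Erythroid markers were lower in 9, 8 and 8 of 9, with 0 higher. NK cell markers were higher in 4 of 6, 5 of 7 and 6 of 7, and lower in 2, 0 and 0. The part of these cell types in the differences was not tested. The median log2 fold change of the 9 genes was 0.76, -0.22 and -0.97 under the 3 treatments, beside 1.48, 1.64 and 2.94 over all genes tested. These values include the genes at or near 0 in the uninjected library. For the 5 of the 9 genes that reached 10 counts in each library the medians were -0.73, -1.44 and -2.52, beside -0.19, -0.11 and -0.21 over all genes above the floor in both.

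DC-depleted pIUT was set against DC control pIUT in each origin, the comparison that asks what DC depletion of the dam changed under the same donor cells. In recipient cells all 9 genes had a negative log2 fold change, from -0.13 for Mx1 to -1.91 for Ifit1, while 45.0% of all genes tested were below 0. The median was -0.75, beside 0.12 over all genes tested. At least 2-fold lower were 3 of 9, Isg15, Ifit1 and Oasl2, and 0 were 2-fold higher, beside 15.5% and 27.4% of genes. Ifit1 was 3.76-fold lower (3.21 to 4.41), Isg15 2.42-fold (2.20 to 2.66) and Oasl2 2.40-fold (2.19 to 2.64). Usp18 was 1.95-fold lower (1.82 to 2.10) and Irf7 1.68-fold (1.61 to 1.76). For Ifit3 and Mx1 the counting interval of the ratio included 1. With the counts of Ifit3b added, the log2 fold change of Ifit3 was -1.68 and not -0.20. These 2 libraries missed few well-expressed genes (0.0949% and 0% at the floor). With scaling by library size alone, 6 of the 9 genes were below 0 and the median over genes present in both libraries moved from 0.00 to 0.23. Granulocyte markers summed to 48730 and 21390 CPM in the DC control and DC-depleted recipient libraries, with 7 of 11 at least 2-fold lower and 4 higher. The 4 were Mpo, Elane, Prtn3 and Ctsg, genes of immature granulocytes, and Mpo was at 416 and 10458 CPM. T cell markers summed to 3690 and 884 CPM, with 8 of 8 lower. Hepatocyte markers summed to 5.14 and 664 CPM, with 7 of 7 higher, and conventional DC markers to 128 and 150 CPM, with 4 of 10 higher. Also at least 2-fold higher were 11 of 14 monocyte and macrophage markers (2 lower), 7 of 8 endothelial and stromal markers tested, 5 of 8 B cell markers and 5 of 9 erythroid markers. Their part in the difference was not tested.

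In maternal cells 5 of 7 genes tested were at least 2-fold lower after DC depletion and 0 higher, beside 37.6% and 38.5% of genes. Oasl2 was 9.83-fold lower (7.80 to 12.6), Ifit2 3.86-fold (3.09 to 4.86), Rsad2 3.73-fold (3.52 to 3.95) and Isg15 3.30-fold (3.04 to 3.60), and Ifit1 was at least 213-fold lower. Irf7 was 1.56-fold lower and Usp18 1.72-fold higher (1.62 to 1.83). Ifit3 and Mx1 had no counts in either library. The median log2 fold change was -1.90, beside 0.07 over all genes tested. Ptprc went from 70.2 to 2.63 CPM between the same libraries, the summed erythroid markers from 100705 to 146843 CPM (1 of 9 at least 2-fold higher and 3 lower) and the granulocyte markers from 1682 to 11013 CPM (8 of 11 higher and 1 lower). Conventional DC markers, of the cells that DT targets in the dam, summed to 39.2 and 81.3 CPM (4 of 7 higher and 3 lower). Zbtb46, at 21.0 and 76.5 CPM, made up most of the second sum, while Itgax, the CD11c gene, had 611 counts and 1 count. T cell markers summed to 140.0 and 405 CPM (2 of 7 higher and 1 lower). Hepatocyte markers summed to 149 and 573 CPM (4 of 7 higher and 0 lower), and plasmacytoid DC markers to 131 and 42.0 CPM (4 of 7 higher and 2 lower). Endothelial and stromal markers were lower in 6 of 8, and monocyte and macrophage markers higher in 7 of 14 and lower in 2. Whether these shifts in cell content account for the difference was not tested.

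**Figure D2:**
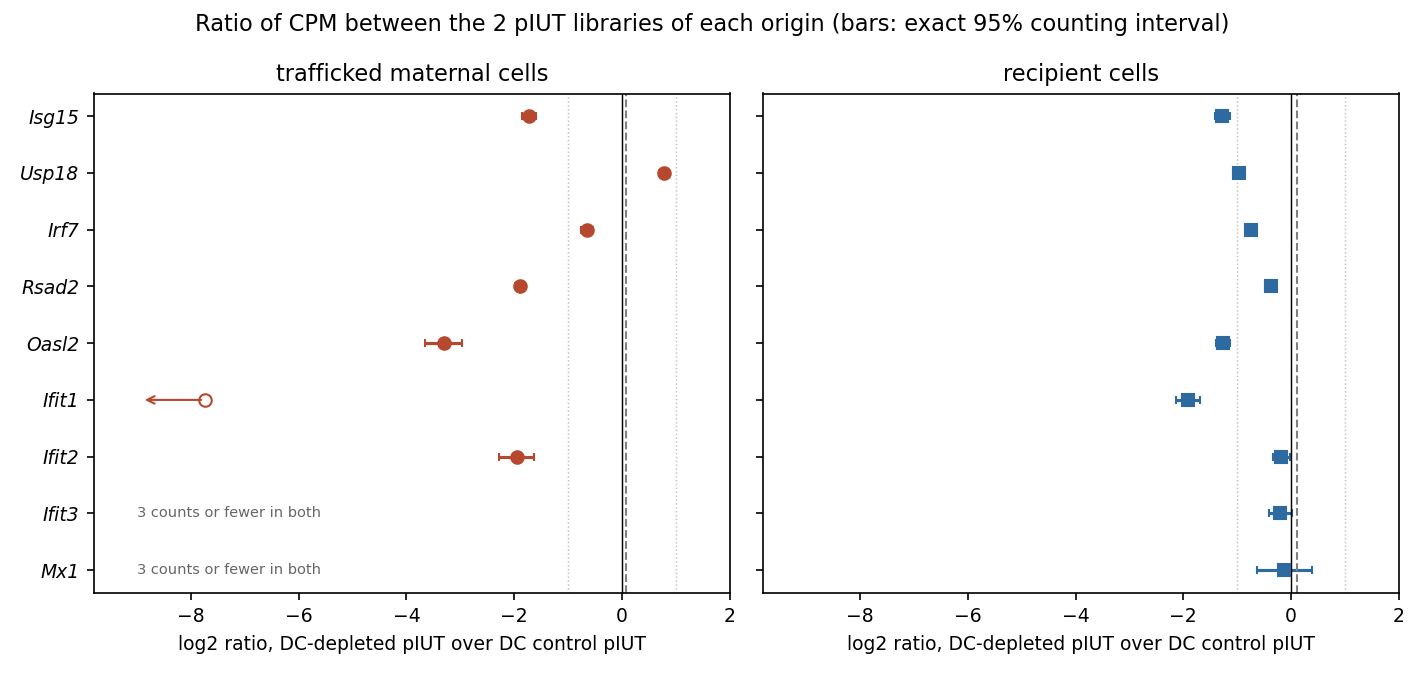
Log2 ratio of CPM in DC-depleted pIUT over DC control pIUT for each gene, in maternal (left) and recipient (right) libraries, with exact 95% counting intervals; the open circle with an arrow is a bound, the dashed line the median of all genes tested and the dotted lines 2-fold. All 9 genes lie below 0 in recipient cells, between -0.13 and -1.91, and all but Usp18 of the 7 with counts lie below 0 in maternal cells.

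Maternal and recipient libraries were compared over the 4 treatments as pairs, with edgeR's quasi-likelihood test on 13417 genes (at least 10 counts in at least 4 libraries), treatment as a block and Benjamini-Hochberg adjustment over all genes. The 4 pairs are different treatments, so the error includes any difference of origin between treatments. Of the 9 genes 8 passed the filter and 0 were called, as 0% of all genes were (284 of 13417 had an unadjusted p below 0.05). Irf7 came closest, at 64.4 ± 34.6 CPM in maternal and 121 ± 53.6 CPM in recipient cells (SD, n = 4). Its log2 fold change, maternal minus recipient, was -0.97 ± 0.48 (SE), it was higher in the recipient library in 4 of 4 pairs, and its adjusted p was 1 by edgeR's quasi-likelihood test (unadjusted 0.0813). With the uninjected libraries left out the value was -1.07 (adjusted p = 0.977). Isg15 was at 40.5 ± 19.1 and 37.7 ± 23.8 CPM, Rsad2 at 67.3 ± 63.6 and 64.7 ± 45.8 CPM and Usp18 at 49.7 ± 12.2 and 36.0 ± 33.0 CPM in maternal and recipient cells, with 2 of 4 pairs in each direction. Oasl2 was at 16.2 ± 16.7 and 44.0 ± 38.5 CPM and higher in recipient cells in 3 of 4 pairs. For Isg15, Rsad2 and Usp18 the difference between origins was smaller than the SD of the recipient libraries. DESeq2's Wald test called 293 genes of the same 13417, none of the 9 among them. Y-linked transcripts were present in 3 of the 4 maternal libraries, and their part in this comparison was not tested.

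The 9 genes did not move as 1 block. Over 36 pairs the median Pearson r of log2(CPM + 1) across the 8 libraries was 0.24, and 7 pairs (19.4%) were above 0.5, beside a median of 0.01 and 17.1% of pairs above 0.5 among the 8508 genes. These are descriptions of 8 libraries that differ in treatment, origin, depth and cell content. Ifit1 and Oasl2 were most alike (r = 0.91), followed by Ifit1 and Irf7 (0.69), Oasl2 and Irf7 (0.68), Ifit3 and Irf7 (0.65) and Ifit2 and Ifit3 (0.62). At the other end were Ifit3 and Rsad2 (-0.73) and Ifit2 and Rsad2 (-0.65). Rsad2 was thus apart from Ifit2 and Ifit3, while its r with Ifit1 was -0.12. Usp18 was apart from Oasl2 (-0.59), and in the recipient uninjected library Oasl2 was at its highest and Usp18 at 7 counts.

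**Figure D3:**
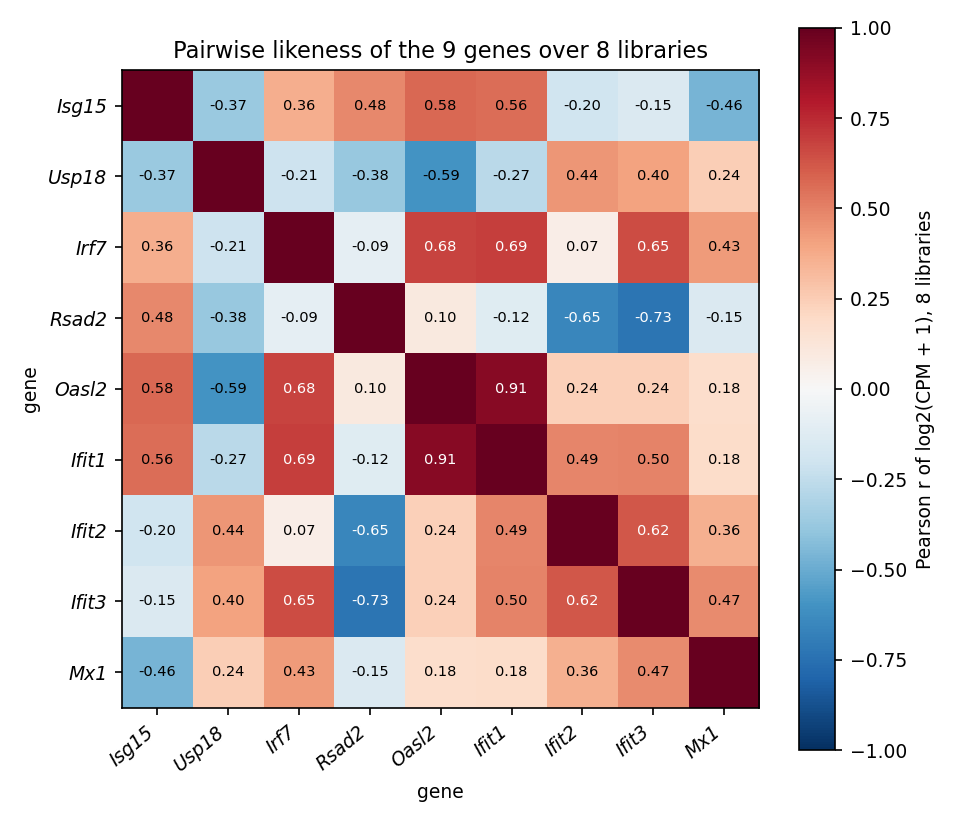
Pearson r of log2(CPM + 1) over the 8 libraries for each pair of the 9 genes (red positive, blue negative). The highest value is 0.91, for Ifit1 and Oasl2, and the lowest -0.73, for Ifit3 and Rsad2.

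The mean log2(CPM + 1) of the 9 genes was 3.05, 4.90, 4.07 and 2.71 in the maternal uninjected, DC control mIUT, DC control pIUT and DC-depleted pIUT libraries and 3.61, 5.11, 4.40 and 3.68 in the recipient libraries. On this scale DC control mIUT was the highest library of each origin. The order of the other recipient libraries depended on the scale, since by summed CPM the uninjected library (461) was above DC control pIUT (284) and near DC control mIUT (514), and its mean on the log2 scale includes 4 genes at 7 counts or fewer. The 5 other genes most like this mean, of 8500 with a mean of at least 10 CPM, were Gsr, the glutathione reductase gene (r = 0.97), Cep19 (0.97), Riok3 (0.97), Trem6l (0.96) and Rnd1 (0.96). None belongs to the pathway lists used here. Gsr was at 186, 1116, 406 and 155 CPM in the maternal and 241, 1737, 551 and 382 CPM in the recipient libraries. The 11 granulocyte markers, such as S100a8, moved with the mean as well (r = 0.73 on the log2 scale of their sum). They summed to 2774, 169447, 1682 and 11013 CPM in the maternal libraries and 16340, 276596, 48730 and 21390 CPM in the recipient libraries. The 2 DC control mIUT libraries, highest in the mean log2(CPM + 1) of the 9 genes, were thus also the highest in granulocyte transcripts. By summed CPM of the 9 genes the maternal DC control mIUT library (438) was below the recipient uninjected library (461). Without the 2 DC control mIUT libraries r was 0.28. Erythroid markers moved the other way (r = -0.74, and -0.52 without these libraries), with 155 CPM in the recipient DC control mIUT library and 15126 to 146843 CPM in the others. Conventional DC markers had r = -0.76 (-0.26 without the DC control mIUT libraries), and plasmacytoid DC markers, of a cell type known for making type I interferon, had -0.40 (0.08 without these libraries). Monocyte and macrophage markers had 0.49 (0.14 without them). The part of these cell types in the levels of the 9 genes was not tested.

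**Figure D4:**
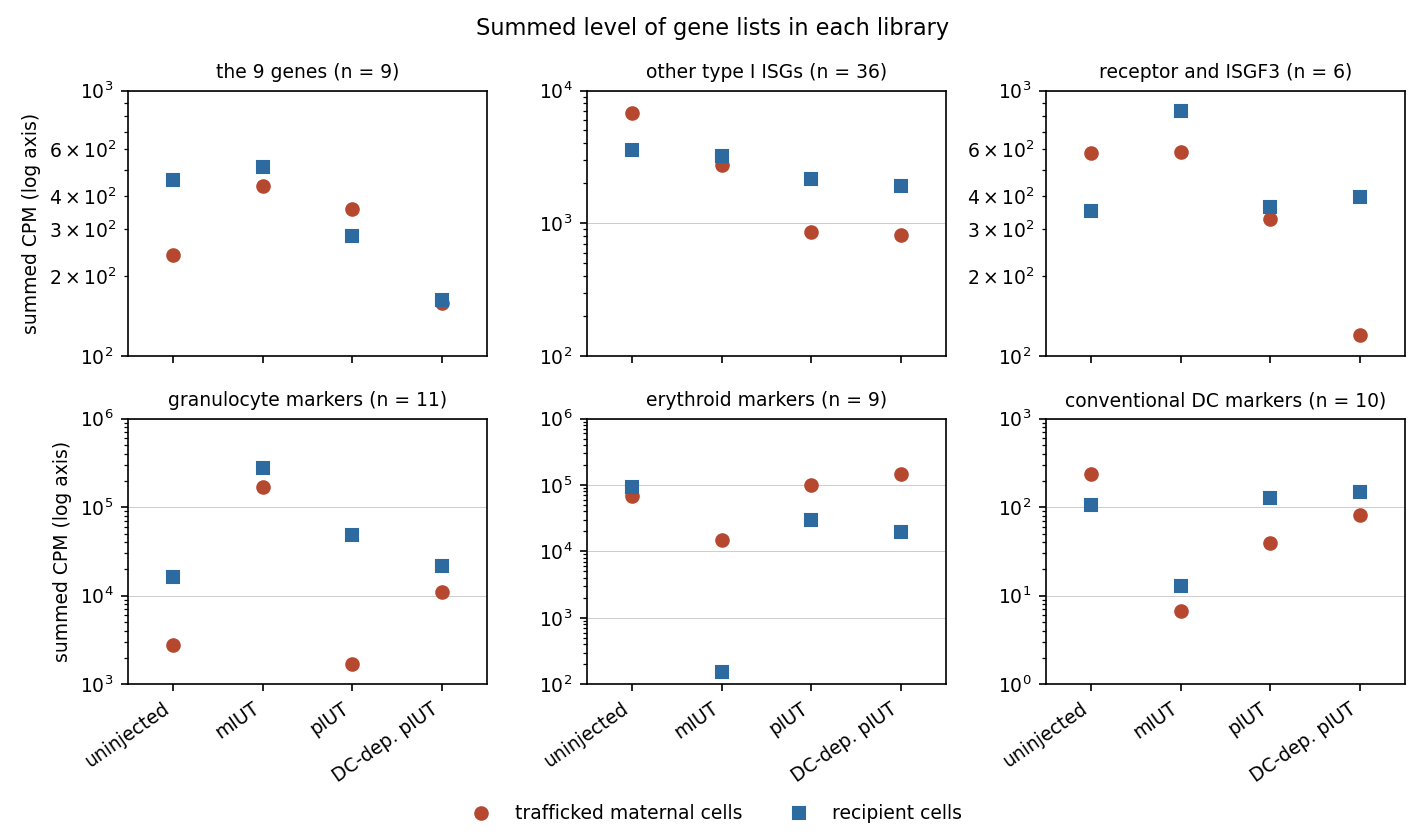
Summed CPM (log axes with different ranges) of 6 gene lists by treatment, in maternal (circles) and recipient (squares) libraries. The 9 genes sum to 159 to 514 CPM and are highest in recipient DC control mIUT; granulocyte markers are highest in the DC control mIUT libraries of both origins, and erythroid markers fall to 155 CPM in recipient DC control mIUT.

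The genes upstream of the 9 were examined in the same libraries. Of 19 interferon genes, 18 had 0 counts in all 8 libraries, every type I and type III gene listed among them. A count of 0 does not exclude a low level. The exception was Ifng, the type II interferon gene, at 17.9, 29.6, 7.18 and 0 CPM in the maternal and 0, 0, 15.1 and 9.25 CPM in the recipient libraries. Ifng was thus at 0 counts in the recipient DC control mIUT library, in which the 9 genes summed highest. Of the receptor, Ifnar1 was at 47.1, 0, 72.2 and 3.76 CPM in the maternal and 0.124, 64.0, 23.6 and 33.8 CPM in the recipient libraries. Ifnar2 was detected in all 8, at 34.0 to 171 CPM in maternal and 61.3 to 194 CPM in recipient cells. The low Ifnar1 values fell in the 2 libraries that missed many genes and in the maternal DC-depleted pIUT library.

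Jak1 was at 334, 214, 120 and 9.75 CPM in the maternal and 174, 290, 156 and 157 CPM in the recipient libraries. Tyk2 was at 19.8, 33.6, 0 and 6.42 CPM in the maternal and 72.8, 36.2, 42.9 and 46.5 CPM in the recipient libraries. Jak1 was lowest in the maternal DC-depleted pIUT library, the one with 2.63 CPM of Ptprc. Stat2 was at 0.771, 8.52, 43.9 and 1.76 CPM in the maternal and 0.0207, 31.7, 8.19 and 13.8 CPM in the recipient libraries. Irf9 was at 78.5, 159, 58.8 and 31.9 CPM in the maternal and 44.6, 224, 56.4 and 30.0 CPM in the recipient libraries. Irf9, like Ifit3 and Irf7, was highest in the DC control mIUT library of each origin, and it was lowest in DC-depleted pIUT in each.

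After DC depletion within pIUT, 3 of the 6 receptor and ISGF3 genes listed were at least 2-fold lower and 1 higher in maternal cells, and 0 were lower or higher in recipient cells. Over all genes tested 37.6% were lower and 38.5% higher in maternal cells, and 15.5% and 27.4% in recipient cells. The median log2 fold changes of the 6 were -2.25 and 0.32, beside -1.90 and -0.75 for the 9 genes and 0.07 and 0.12 over all genes tested. The 36 other type I interferon-stimulated genes had medians of 0.23 in maternal and -0.17 in recipient cells, with 13 lower and 9 higher of 29 in maternal cells and 8 lower and 4 higher of 36 in recipient cells. The 3 most abundant of them were Ly6e, a GPI-anchored surface protein (229 and 311 CPM in maternal, 938 and 860 CPM in recipient cells, DC control pIUT first), Ifitm3, which restricts virus entry (65.8 and 29.7, 234 and 166 CPM), and Sp100, a nuclear body protein (30.3 and 5.12, 108 and 85.5 CPM). Genes induced mainly by interferon-gamma had medians of -1.14 in maternal and -0.89 in recipient cells, with 8 of 13 and 6 of 15 lower. Their 3 most abundant members, Irgm1, Igtp and Tgtp2, which encode immunity-related GTPases, were at 96.0 and 60.3, 114 and 58.4, and 91.9 and 67.5 CPM in the recipient libraries. In the maternal libraries they were at 97.6 and 71.1, 38.8 and 30.01, and 72.2 and 98.5 CPM, so that Tgtp2 was higher after DC depletion there.

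Against the maternal uninjected library, the other type I genes were also counted. After DC control pIUT 4 of 33 were higher and 24 lower, beside 34.3% of all genes tested in each direction, with a median log2 fold change of -2.62, beside 1.10 for the 9 and 0.00 over all genes tested. After DC-depleted pIUT 2 of 33 were higher and 23 lower, beside 37.1% and 36.3%, with a median of -1.84, beside -0.60 for the 9 and 0.06 over all genes tested. After DC control mIUT 11 of 35 were higher and 14 lower, beside 27.1% and 46.1%, with a median of -0.77, which was near the -0.67 of all genes tested. Ly6e was at 4590 CPM in the maternal uninjected library and 225 to 311 CPM in the other maternal libraries. The summed markers of lymphocytes and plasmacytoid DC were also lower in those libraries. B cell markers summed to 6665, 432, 78.8 and 37.6 CPM in the maternal uninjected, DC control mIUT, DC control pIUT and DC-depleted pIUT libraries, T cell markers to 2129, 503, 140.0 and 405 CPM, NK cell markers to 1058, 261, 168 and 86.0 CPM and plasmacytoid DC markers to 1858, 32.6, 131 and 42.0 CPM. Among the 8 B cell markers, 2 went against their sum, Vpreb1a with 0, 1739, 109 and 102 counts and Igll1 with 0, 2480, 329 and 117, genes of the surrogate light chain of B cell precursors. Their part in the levels of the 9 genes and of the other type I genes was not tested. In recipient cells 21 of 35 were higher and 5 lower after DC control mIUT (median 1.28), beside 53.5% and 26.5% of all genes tested. After DC control pIUT 16 of 36 were higher and 9 lower (0.47), beside 54.6% and 21%, and after DC-depleted pIUT 15 of 35 and 8 (0.21), beside 57.2% and 18.8%. These medians lie below those of all genes tested in recipient cells (1.48, 1.64 and 2.94), as those of the 9 did. The medians of all genes include genes at or near 0 in the recipient uninjected library. Over genes above the floor in both libraries they were -0.19, -0.11 and -0.21, a limit not applied here to the other type I genes.

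Among sensors and interferon regulatory factors, the most abundant were Irf8, a factor of DC and B cell development, Myd88, the adaptor of Toll-like receptors, and Irf5. Myd88 was at 114, 161, 41.1 and 43.7 CPM in the maternal and 54.9, 305, 90.5 and 72.5 CPM in the recipient libraries, again highest after DC control mIUT in each origin. Irf8 was at 420, 64.2, 9.81 and 6.09 CPM in the maternal and 114, 38.8, 170 and 193 CPM in the recipient libraries, and Irf5 at 174, 0.878, 27.6 and 2.88 and at 283, 24.1, 51.7 and 89.9 CPM. After DC depletion 6 of 12 genes of this list were lower and 2 higher in maternal cells, and 1 lower (Irf1, 215 to 42.0 CPM) and 0 higher of 16 in recipient cells, beside 37.6% lower and 38.5% higher of all genes tested in maternal and 15.5% and 27.4% in recipient cells. Of the negative regulators, Ptpn6 was at 382 and 910 CPM, Samhd1 at 444 and 520 CPM and Tnfaip3 at 0.155 and 9.94 CPM in the maternal and recipient DC control mIUT libraries. In recipient cells 4 of these 11 were lower and 0 higher after DC depletion (15.5% and 27.4% of all genes), Tnfaip3 among them (340 to 96.0 CPM). In the comparison of origins 0 genes of these lists were called by edgeR's quasi-likelihood test, and 2 of the pathway genes, Samd9l and Irf5, had an unadjusted p below 0.05.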

How the data were processed

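The authors deposited estimated counts per gene, with fractional values as salmon writes them in the nf-core pipeline (the study's methods name featureCounts), against GRCm39 with GENCODE annotation and without normalization. All 8 columns belong to a sample and 0 were left out. Estimated counts were rounded, and 97.99% of gene identifiers matched GENCODE vM39, used for symbols, exon lengths and promoters. TMM factors and log2 fold changes (exact test, dispersion 0.4 as in the study's methods, prior count 0.125, no p-value) came from edgeR 4.0.16 in R 4.3.3, for genes above 3 counts in at least 1 of the 2 libraries. Intervals are exact Poisson or binomial at the 95% level and cover counting error only. Origins were compared by edgeR's quasi-likelihood test with 3 residual degrees of freedom, with DESeq2 1.42.0 as an alternative. No label gives replicates within an origin and treatment, so the test measures the spread between these pools. The calculations were tested on simulated data. Figures used matplotlib 3.10.9.

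The 9 genes, the gene lists and the tests were chosen with earlier results of these data known. Named are all 9 genes, all genes of the receptor and ISGF3 list, the 3 of each other pathway list with the highest mean CPM, and the 5 genes most like the mean of the 9. Genes named outside this rule were chosen after values were seen. They are the Y-linked genes, Ptprc, Cmpk2, Irf1, Samd9l, the relatives of Mx1, Ifit1 and Ifit3, and single markers. The single markers are those of granulocytes, Zbtb46 and Itgax of conventional DC, and Vpreb1a and Igll1 of B cells. Alternatives were DESeq2 size factors, library size alone, prior counts of 2 and 5 and a minimum of 10 counts in both libraries. Chosen after seeing the data were adding the reads of Ifit3b to Ifit3 and of Ifit1bl1 and Ifit1bl2 to Ifit1, and leaving out the DC control mIUT libraries. A further gene of the pathway is not reported here.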

Additional observations from a re-analysis of the deposited data

Results flagged for a closer look

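Some of the 9 genes differed from the uninjected library by at least 2-fold in opposite directions in the 2 origins under the same treatment. The difference between origins was not tested, since each value compares 1 library with 1. After DC control pIUT the log2 fold change of Rsad2 was 1.29 in maternal and -1.78 in recipient cells, that of Oasl2 2.98 and -1.76, that of Ifit1 12.76 and -1.44 and that of Ifit3 -10.21 and 5.88. After DC control mIUT Oasl2 was at 3.66 in maternal and -1.56 in recipient cells. After DC-depleted pIUT Ifit3 was at -9.90 in maternal and 5.69 in recipient cells. The values of Ifit1 and Ifit3 beyond 9 in size rest on a library with 0 counts, and those of Ifit3 in recipient cells on an uninjected library with 6 counts. With the counts of its related genes Ifit1bl1 and Ifit1bl2 added to Ifit1, the values after DC control pIUT were -0.28 in maternal and -0.44 in recipient cells. The sum thus did not go in opposite directions, while Ifit1 alone did.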

How the results depend on the processing

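Prior counts of 2 and 5, DESeq2 size factors and scaling by library size left the counts of the 9 genes at least 2-fold higher or lower within 1.5 times of those reported in all 8 comparisons of libraries. A minimum of 10 counts in both libraries, which removes genes at or near 0 in 1 of them, lowered the higher counts in maternal cells to 2 of 6 after DC control mIUT, 2 of 5 after DC control pIUT and 0 of 5 after DC-depleted pIUT, beside 30.1%, 27.4% and 28.7% of all genes at that minimum. In recipient cells they were 0 of 5 under all 3 treatments, beside 27.1%, 22.4% and 19.3% of all genes, down from 53.5%, 54.6% and 57.2%. The lower genes in recipient cells stayed at 2, 4 and 4, now of 5. Beside them 35.6%, 30.7% and 32.0% of all genes were lower, up from 26.5%, 21% and 18.8%. The minimum also gave 0 of 5 lower genes after DC control pIUT and 1 of 5 after DC-depleted pIUT in maternal cells, beside 24.2% and 32.7% of all genes. Without the minimum, the median log2 fold change of interferon-gamma-induced genes against the uninjected recipient library was 5.77, 9.57 and 8.90. These values are for DC control mIUT, DC control pIUT and DC-depleted pIUT, with 10, 13 and 11 of 15 genes at least 2-fold higher. Under the minimum it turned to -0.78 after DC control mIUT and -0.80 after DC-depleted pIUT. Adding the reads of related genes to Ifit1 turned its value after DC control pIUT in maternal cells to -0.28. Scaling by library size also took 3 values of single genes past 2-fold lower: Isg15 against the uninjected library, to -1.06 after DC-depleted pIUT in maternal and -1.28 after DC control mIUT in recipient cells, and Irf7 to -1.22 for DC-depleted against DC control pIUT in maternal cells. Scaling by library size moved the median log2 fold change of genes present in both libraries most for DC-depleted against DC control pIUT in maternal cells, from -0.16 to -0.74, and for DC control mIUT in recipient cells, from -0.19 to -0.74. In the comparison of origins 0 of the 9 genes were called under every alternative: other scalings, no filter, no treatment block, each treatment left out in turn (0 to 0) and DESeq2's Wald test, in which Ifit1 had the lowest adjusted p of the 9, 0.248. No paired analysis by replicate number was possible because each group holds 1 library.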
